A study of Mus musculus with 6 samples.

Results

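Transcripts of 10 genes that build or regulate the pyruvate dehydrogenase complex were examined among 49315 genes counted in mouse gastrocnemius, a calf muscle. The genes were chosen by name. They were the pyruvate dehydrogenase kinases Pdk1, Pdk2, Pdk3 and Pdk4, the phosphatases Pdp1 and Pdp2, and the complex subunits Pdha1, Pdhb, Dlat and Dld. Male C57BL6J mice had received AAV9, a muscle-infecting viral vector, by injection into the gastrocnemius at 5 months of age, and muscles were taken 5 months later. The vector carried either an aryl hydrocarbon receptor (AHR) that is active without ligand (AAV9-HSA-CAAHR, replicates 31, 34 and 36) or green fluorescent protein (AAV9-HSA-GFP, replicates 42, 43 and 46), 3 libraries in each group. Both transgenes were driven by HSA, the promoter of human skeletal actin, whose activity is in myofibres, so the other cells of the muscle were not targeted and the control muscles carried virus too. Muscle that had received no virus was not analysed here. The labels do not tie libraries to animals, so p-values measure only the spread between these libraries.

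Pyruvate dehydrogenase is the mitochondrial enzyme complex that turns pyruvate from glycolysis into acetyl-CoA, and so sets how much carbohydrate enters the citric acid cycle. The kinases switch the complex off by phosphorylating its E1 alpha subunit, and the phosphatases switch it on again. In skeletal muscle the kinase Pdk4 is known to rise during fasting and other states in which fat is the main fuel. The question was whether the transcripts of the kinases, the phosphatases and the complex itself differed in muscle with a constitutively active AHR, a transcription factor normally switched on by ligands such as components of tobacco smoke.

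Library totals ranged from 43432994 to 58825752 counts, and 15847 genes passed a filter on low counts, all 10 genes of the complex and its regulators included. Levels are given as CPM, each library's counts relative to its total after TMM scaling (the trimmed mean of log ratios between libraries). Ahr, the gene delivered, was at 9.97, 22.8 and 17.3 CPM in CAAHR replicates 31, 34 and 36 and between 1.87 and 2.55 CPM in GFP muscles. Cyp1a1, the AHR target gene that encodes a xenobiotic-metabolising enzyme, was at 1231, 1680 and 1517 CPM in those CAAHR muscles against 5.85 to 7.74 CPM, so neither gene went against the labels. All 9 muscle fibre markers examined were detected in every library. CAAHR replicate 34 stood apart from the other two CAAHR muscles in its slow-fibre transcripts: the slow myosin heavy chain gene Myh7 stood at 877, 156 and 809 CPM in CAAHR replicates 31, 34 and 36 and between 37.5 and 79.5 CPM in GFP muscles.

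Of the 10 genes, 2 rose in CAAHR muscles, the kinases Pdk4 and Pdk1, and none fell (edgeR quasi-likelihood test, adjusted p under 0.05). Over all tested genes 3.04% were called higher and 4.57% lower, 7.60% in all. Pdk4 rose 2.72-fold and Pdk1 rose 1.37-fold. The study had already named these 2 kinases from the same libraries, so their calls are not independent evidence of that direction. At an unadjusted p under 0.05, 5 of the 10 genes were higher (Pdk4, Pdk1, Pdp2, Pdha1 and Dlat) and 0 were lower, beside 11.3% higher and 12.6% lower over all tested genes (23.9% in all). The fitted difference was above 0 for 6 of the 10 genes and for 51.2% of all tested genes. In 7 of the 10 genes the groups did not overlap, 5 higher and 2 lower, where 29.9% of all tested genes did not overlap. The median log2 fold change was 0.16 for the 10 genes and 0.0086 for all tested genes. These are levels in whole muscle, where fewer cells of a type and less RNA per cell cannot be told apart.

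**Figure D1:**
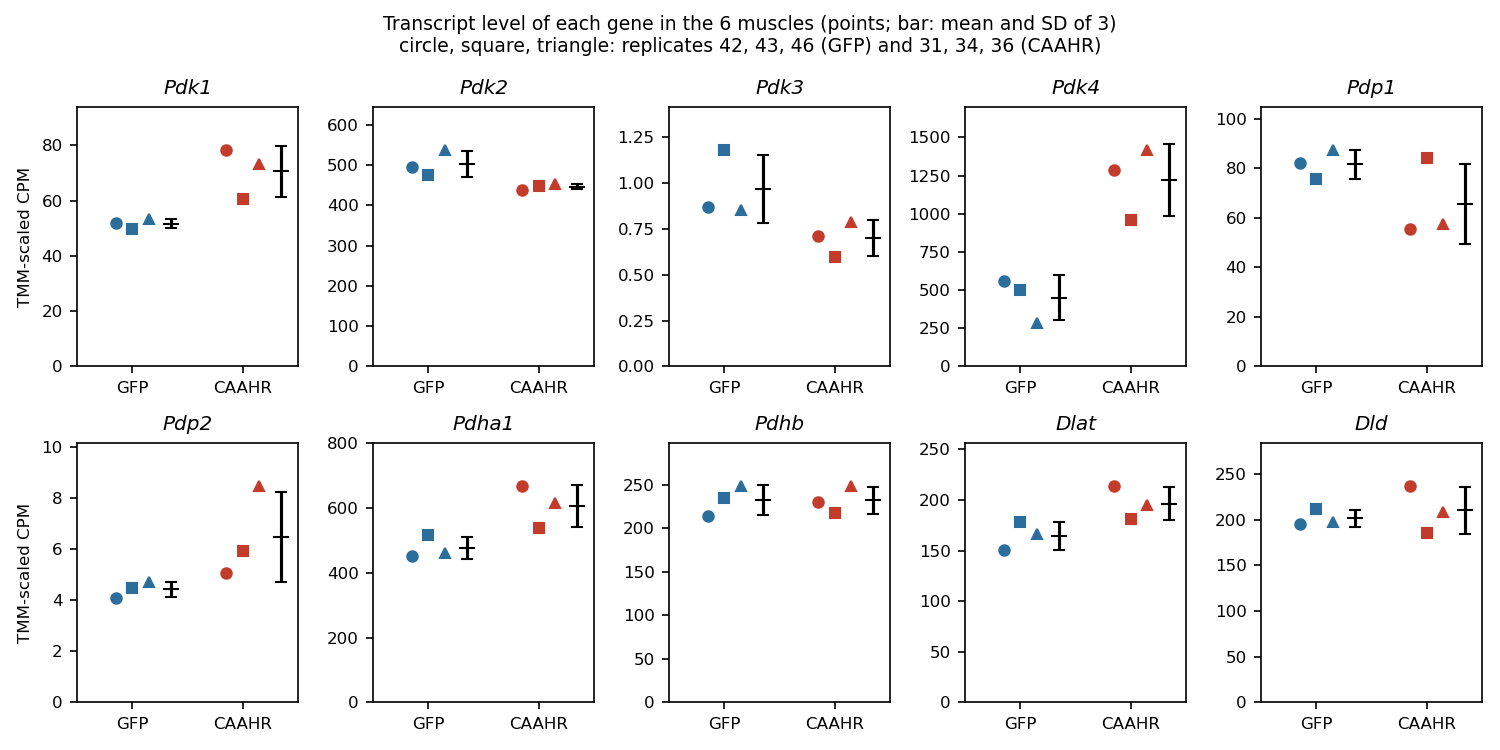
TMM-scaled CPM of the 10 genes in each of the 6 muscles, with the mean and SD of the 3 muscles of a group as a bar beside the points and every axis starting at 0. For Pdk4 the CAAHR muscles sit between 958 and 1416 CPM and the GFP muscles between 283 and 562 CPM, while for Pdhb, Dld and Pdp1 the groups overlap.

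Pdk4, the kinase isoform most responsive to diet, showed the largest difference of the 10 genes. Its level was 1287, 958 and 1416 CPM in CAAHR replicates 31, 34 and 36 and 562, 504 and 283 CPM in GFP replicates 42, 43 and 46. All CAAHR muscles were above all GFP muscles, and the gap between the lowest CAAHR and the highest GFP muscle was wider than the whole spread of the GFP group. The log2 fold change was 1.44 ± 0.26 (SE, 95% interval 0.83 to 2.05), which is a fold change between 1.78 and 4.15 (edgeR quasi-likelihood test, Benjamini-Hochberg adjusted p = 0.0181). The call was lost without CAAHR replicate 31 (adjusted p = 0.0638) and without CAAHR replicate 36 (adjusted p = 0.0625) in the same edgeR test, with log2 fold changes between 1.19 and 1.64 whichever library was left out.

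The Pdk4 gene (ENSMUSG00000019577) lies on chromosome 6 from 5483351 to 5496309 on the minus strand of GRCm38. The stretch ahead of that start is shown because AHR, with its partner ARNT, binds DNA at a core of GCGTG. It holds 1 such core, in capitals, from 71 to 67 bases before the RefSeq start. The RefSeq start lies downstream of the gene start given here, where the printed stretch ends, so the core is nearer to the printed end. The bases are from RefSeq on GRCm38.p6, chr6:5496310-5496528, minus strand, read 5′ to 3′.
Pdk4 upstream: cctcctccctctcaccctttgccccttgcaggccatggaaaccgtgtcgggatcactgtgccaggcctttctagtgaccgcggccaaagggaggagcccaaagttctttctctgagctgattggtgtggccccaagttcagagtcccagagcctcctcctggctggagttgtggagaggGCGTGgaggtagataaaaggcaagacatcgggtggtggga

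Pdk1, an isoform better known from hypoxic and glycolytic cells, was far less abundant. Its level was 78.2, 60.4 and 73.3 CPM in CAAHR replicates 31, 34 and 36 and 51.8, 49.9 and 53.2 CPM in GFP replicates 42, 43 and 46. The groups did not overlap, GFP muscles lay close together, and CAAHR replicate 34 was nearest to them. The log2 fold change was 0.45 ± 0.11 (SE, 95% interval 0.21 to 0.70; edgeR quasi-likelihood test, adjusted p = 0.0359). This call rested on the full set of libraries: in the same edgeR test the adjusted p was 0.115 without CAAHR replicate 31, 0.129 without CAAHR replicate 36, 0.0922 without GFP replicate 42, 0.125 without GFP replicate 43 and 0.0898 without GFP replicate 46. Without CAAHR replicate 34 it was 0.00628, and with upper quartile scaling of all libraries it was 0.0622.

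The Pdk1 gene (ENSMUSG00000006494) lies on chromosome 2 from 71873224 to 71903858 on the plus strand. Its upstream stretch, chr2:71872974-71873223 on the plus strand, is shown for the same reason, with a GCGTG core from 78 to 74 bases before the RefSeq start in capitals. A second core spans the start itself and is not printed in full.
Pdk1 upstream: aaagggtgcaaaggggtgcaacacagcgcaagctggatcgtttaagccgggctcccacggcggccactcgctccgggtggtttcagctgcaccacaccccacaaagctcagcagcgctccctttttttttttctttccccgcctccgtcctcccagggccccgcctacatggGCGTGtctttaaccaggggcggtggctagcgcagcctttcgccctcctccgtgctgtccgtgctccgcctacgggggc

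A core of 5 letters is common. GCGTG, searched on both strands, was present in 32.4% of 32851 RefSeq promoter windows. The windows are equal in length and longer than the stretches printed above, because they run past the RefSeq start. Of the 10 genes, 9 had windows there (11 windows in all), and 5 of these genes (Pdk1, Pdk3, Pdk4, Pdha1 and Pdhb) had the core, in 5 of the 11 windows. The longer TNGCGTG, which contains GCGTG, was in 5.07% of all windows and in none of the 11. ACGTG, a core that hypoxia factors can bind, though not the only one, was in 19.6% of all windows and in those of Pdk2, Pdk3, Pdp2 and Pdhb. AAGGTCA, bound by oestrogen-related receptors (4.72% of windows), and GTAAACA, bound by FoxO factors (3.65%), were in none of the 11. A match is a run of letters and not a measured binding site.

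Pdk2, the isoform found most widely across tissues, moved little and in the other direction. It was at 439, 448 and 453 CPM in CAAHR replicates 31, 34 and 36 and at 495, 477 and 537 CPM in GFP replicates 42, 43 and 46. The CAAHR muscles were all below the GFP muscles and nearly equal to each other, but the log2 fold change of -0.17 ± 0.10 (SE, 95% interval -0.40 to 0.06) did not pass the edgeR quasi-likelihood test (adjusted p = 0.346). Pdk2 (ENSMUSG00000038967) lies on chromosome 11 from 95026258 to 95041354.

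Pdk3, the scarcest of the kinases in these muscles, gave few reads. It was at 0.712, 0.595 and 0.787 CPM in CAAHR muscles and at 0.870, 1.18 and 0.850 CPM in GFP muscles, in the order of replicates used above. These values come from 34 to 49 counts per library. The groups did not overlap, with a log2 fold change of -0.46 ± 0.28 (SE, 95% interval -1.08 to 0.16; edgeR quasi-likelihood test, adjusted p = 0.354), and changes much smaller than that interval were not detectable at this depth. Pdk3 lies on chromosome X from 93764607 to 93832201.

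**Figure D2:**
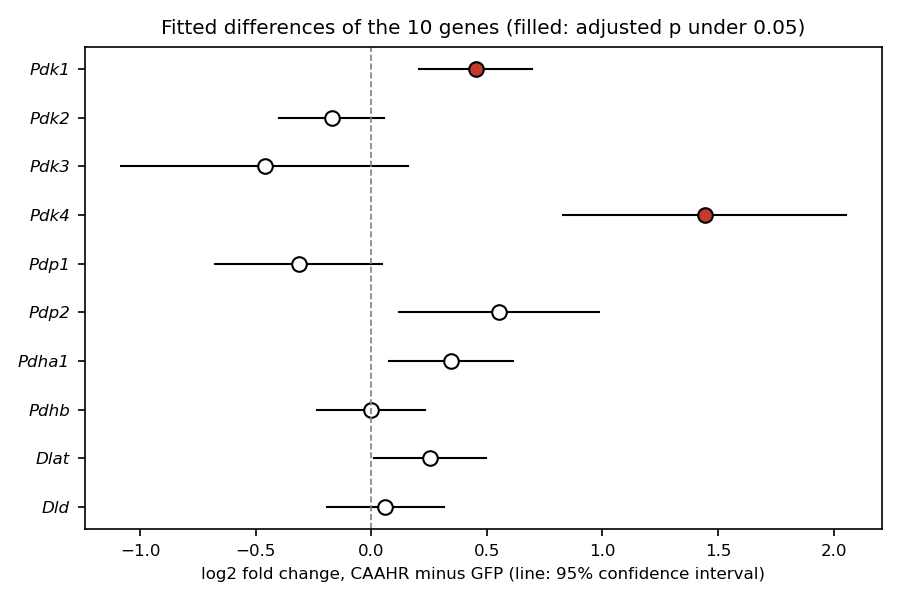
Fitted log2 fold change of each of the 10 genes (CAAHR minus GFP, horizontal axis) with its 95% confidence interval as a line, and filled points for an adjusted p under 0.05. Pdk4 (1.44) and Pdk1 (0.45) are filled, and the intervals of Pdk2, Pdk3, Pdp1, Pdhb and Dld include 0.

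Levels of different genes can be set beside each other only per length, here as TMM-scaled CPM per kilobase of annotated exon. On that scale Pdk4 was at 348 and Pdk2 at 141 in CAAHR muscles (means of 3), and at 128 and 159 in GFP muscles. In GFP muscles Pdk2 (151 to 170) was above Pdha1 (121 to 138). The range of Pdk4 (80.5 to 160) overlapped both, so its place was not resolved on this exon length. The longest transcript has 3484 of 3511 exon bases for Pdk4 but 2246 of 3163 for Pdk2, so their order in GFP muscles depends on the length taken. In CAAHR muscles Pdk4 (lowest 273) stood above Pdha1 (143.9 to 179) and Pdk2 (139 to 143.3) without overlap. Pdk1 was at 9.08 against 6.63 CPM per kilobase and Pdk3 at 0.273 against 0.377 (means, CAAHR and GFP), so both were minor isoforms in either group.

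As a share of the summed per-length level of the 4 kinases, Pdk4 made up 71.1%, 64.6% and 72.5% in CAAHR replicates 31, 34 and 36 and 49.4%, 47.7% and 31.3% in GFP replicates 42, 43 and 46. Its mean share was 69.4% ± 4.21 against 42.8% ± 10.02 (SD, n = 3 each). Pdk2 held most of the remainder, 25.8% to 33.5% in CAAHR and 48.4% to 65.9% in GFP muscles. On this exon length the leading kinase transcript was therefore Pdk4 in every CAAHR muscle and Pdk2 in GFP replicates 43 and 46. In GFP replicate 42 it was Pdk4 by a small margin, a lead that depends on the length taken. The ratio of Pdk4 to Pdk2 per length was 2.64, 1.93 and 2.81 in CAAHR muscles and 1.02, 0.952 and 0.474 in GFP muscles. These shares follow from the Pdk4 difference already given and are a description without a test.

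**Figure D3:**
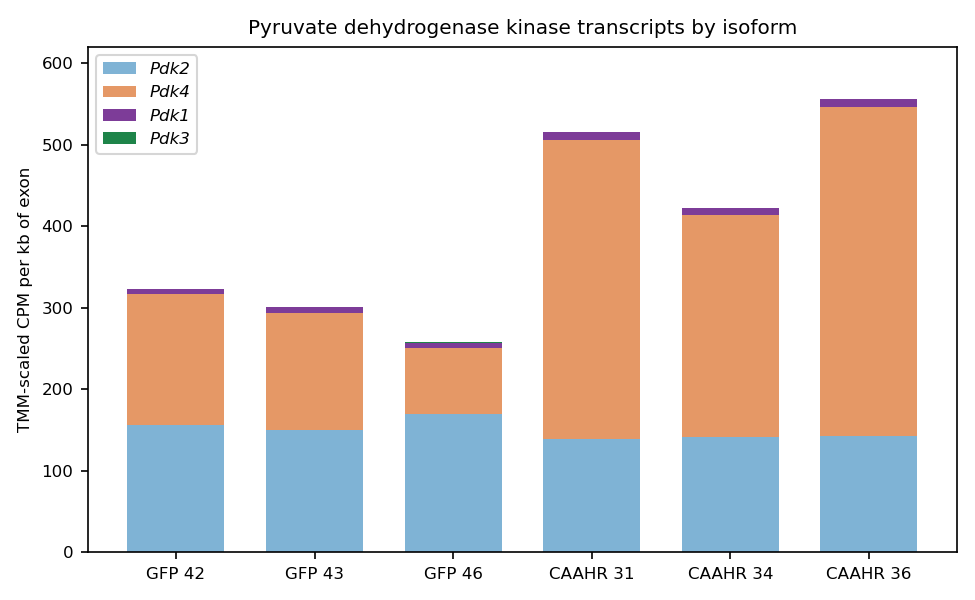
Summed transcript level of the 4 pyruvate dehydrogenase kinases in each muscle, in TMM-scaled CPM per kilobase of exon, stacked by isoform. The sums run from 258 to 324 in GFP muscles and from 422 to 556 in CAAHR muscles, with the mean Pdk4 segment 219.6 higher in CAAHR muscles and the mean Pdk2 segment at 141 against 159.

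The phosphatases, which remove the inhibiting phosphates, did not move together. Pdp1, the calcium-stimulated isoform typical of muscle, was at 55.4, 84.3 and 57.4 CPM in CAAHR replicates 31, 34 and 36 and at 82.1, 75.6 and 87.3 CPM in GFP replicates 42, 43 and 46. CAAHR replicates 31 and 36 were below every GFP muscle, whereas replicate 34 lay within the GFP range, so the groups overlapped. Its log2 fold change was -0.31 ± 0.16 (SE, edgeR quasi-likelihood test, adjusted p = 0.272). Without CAAHR replicate 34 it was -0.54 with an adjusted p of 0.0108 in the same edgeR test. Pdp1 (ENSMUSG00000049225) lies on chromosome 4 from 11958184 to 11966452.

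Pdp2, the calcium-independent isoform, was at 5.08, 5.92 and 8.46 CPM in CAAHR muscles and at 4.10, 4.47 and 4.70 CPM in GFP muscles. The groups did not overlap, with CAAHR replicate 36 well above the others. A log2 fold change of 0.55 ± 0.19 (SE, 95% interval 0.12 to 0.99) was past an unadjusted p of 0.05 but not the adjusted threshold (edgeR quasi-likelihood test, adjusted p = 0.115). Per kilobase of exon Pdp1 remained the main phosphatase transcript, at 14.6 against 1.14 for Pdp2 in CAAHR and 18.1 against 0.777 in GFP muscles (means). The ratio of Pdp1 to Pdp2 was 13.8, 18 and 8.56 in CAAHR muscles and 25.3, 21.4 and 23.5 in GFP muscles, without overlap. Pdp2 lies on chromosome 8 from 104591451 to 104599026.

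The summed kinase level was 39.1, 21.4 and 39.1 times the summed phosphatase level in CAAHR replicates 31, 34 and 36, per length, and 17.1, 17.1 and 12.8 times in GFP replicates 42, 43 and 46. The means were 33.2 ± 10.2 and 15.7 ± 2.52 (SD, n = 3 each). All 3 CAAHR muscles were above all GFP muscles, but replicate 34 was much nearer to them than the other CAAHR muscles were. The kinase sums did not overlap (422 to 556 against 258 to 324 CPM per kilobase) and the phosphatase sums did (13.2 to 19.7 against 17.6 to 20.2). These are ratios of transcripts, and enzyme activity was not measured in these files.

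None of the 4 subunits of the complex itself was called. Pdha1, the E1 alpha subunit that carries the phosphorylation sites, was at 667, 537 and 615 CPM in CAAHR replicates 31, 34 and 36 and at 452, 517 and 462 CPM in GFP replicates 42, 43 and 46. The groups were apart by only the step from 517 to 537 CPM. The log2 fold change of 0.35 ± 0.12 (SE, 95% interval 0.08 to 0.61) did not pass after adjustment (edgeR quasi-likelihood test, adjusted p = 0.112). Without CAAHR replicate 34 it was 0.42 and passed (edgeR, adjusted p = 0.0442), and DESeq2 on all 6 libraries gave an adjusted p of 0.0491. Pdha1 lies on chromosome X from 160122209 to 160138413, and 603 of its 3734 exon bases are shared with Map3k15 on the opposite strand, a gene at 0.622 to 1.60 CPM.

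Pdhb encodes E1 beta, the partner of Pdha1 in the same E1 heterotetramer, and showed no such shift. Its level was 230, 218 and 248 CPM in CAAHR muscles and 214, 234 and 248 CPM in GFP muscles, with full overlap. The fitted difference was -0.0024 ± 0.10 (SE) on the log2 scale, with a 95% interval of -0.24 to 0.23 (edgeR quasi-likelihood test, adjusted p = 0.994). The ratio of Pdha1 to Pdhb per length was accordingly 3.0, 2.55 and 2.56 in CAAHR and 2.18, 2.28 and 1.93 in GFP muscles. That ratio did not overlap between groups, although the 2 proteins form the enzyme in equal numbers. Pdhb lies on chromosome 14 from 8165996 to 8173025.

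Dlat, the E2 acetyltransferase that forms the core of the complex, was at 214, 181 and 195 CPM in CAAHR muscles and at 150, 178 and 166 CPM in GFP muscles. The groups were apart by a narrow margin, with a log2 fold change of 0.25 ± 0.11 (SE, 95% interval 0.01 to 0.50; edgeR quasi-likelihood test, adjusted p = 0.193). Dld, the E3 subunit that is shared with the 2-oxoglutarate and branched-chain dehydrogenases, was at 237, 186 and 208 CPM in CAAHR and 195, 212 and 198 CPM in GFP muscles. Its groups overlapped, and the log2 fold change was 0.06 ± 0.11 (SE, 95% interval -0.19 to 0.31; edgeR quasi-likelihood test, adjusted p = 0.803). As fold changes, the intervals were 0.849 to 1.17 for Pdhb and 0.875 to 1.24 for Dld. Dlat lies on chromosome 9 from 50634633 to 50659780 and Dld on chromosome 12 from 31331277 to 31351453.

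Per length, Pdha1 led the subunits in both groups (162 and 128 CPM per kilobase in CAAHR and GFP), followed by Pdhb (60.0 and 60.1) and Dld (57.1 and 54.7), whose ranges overlapped in each group, and then by Dlat (40.2 and 33.7). Below these, on this exon length, the order Pdp1, Pdk1, Pdp2, Pdk3 held in both groups with no overlap between neighbours. The longest transcript of Pdk1 has 5185 of its 7779 exon bases, and that of Pdp1 has 4201 of 4507. The order of Pdp1 and Pdk1 in CAAHR muscles therefore depends on the length taken. Only the top 3 places differed between the groups on this exon length. Pdk4 was first in CAAHR muscles and overlapped both Pdk2 and Pdha1 in GFP muscles. Pdha1 was above Pdk2 in CAAHR but below it in GFP muscles, without overlap in either. In CAAHR muscles the gap was narrow, from 143.3 (highest Pdk2) to 143.9 (lowest Pdha1) CPM per kilobase. That gap depends on the length taken, as the longest transcript has 2246 of 3163 exon bases for Pdk2 and 2848 of 3734 for Pdha1.

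The CAAHR muscles were not alike for these genes. Against the GFP mean, Pdk4 was higher by 1.52, 1.09 and 1.66 on the log2 scale in replicates 31, 34 and 36. For Pdk1 the same differences were 0.60, 0.23 and 0.51, and for Pdp1 they were -0.56, 0.05 and -0.51. Replicate 34 was the CAAHR muscle nearest to the GFP mean for 5 of the 10 genes (Pdk1, Pdk4, Pdp1, Pdha1 and Dlat), replicate 36 for 3 and replicate 31 for 2. The same count over all tested genes was not taken. Replicates 31, 34 and 36 lay within the GFP range for 1, 2 and 2 of the 10 genes, beside 34.8%, 35.3% and 33.5% of all tested genes. Ahr itself was highest in replicate 34, so the order of the CAAHR muscles in Ahr was not their order in Pdk4.

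**Figure D4:**
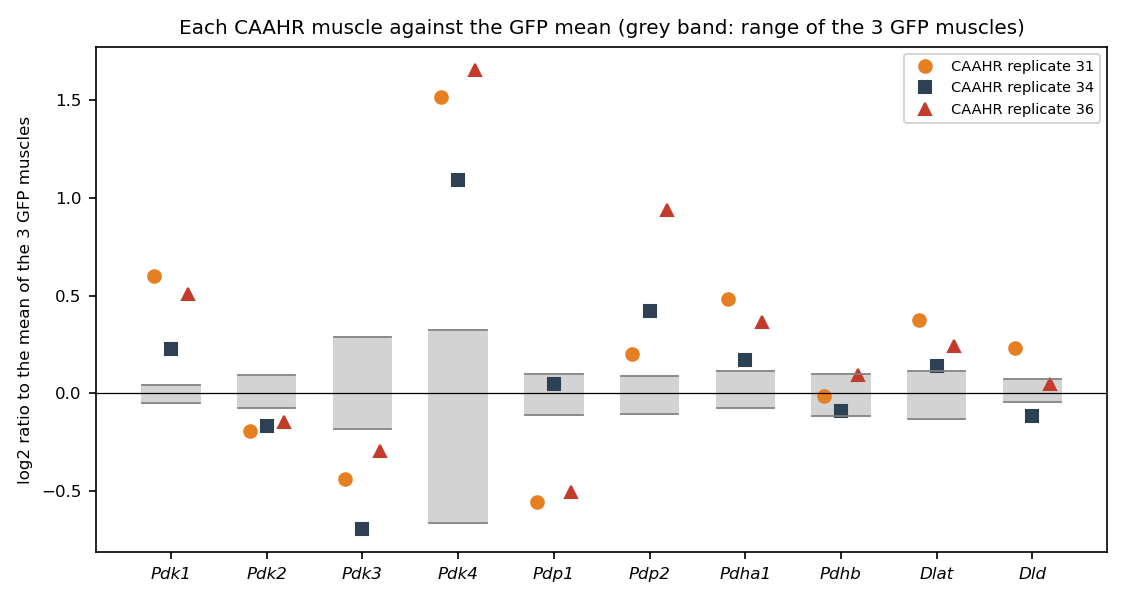
Log2 ratio of each CAAHR muscle to the mean of the 3 GFP muscles for each gene, with the range of the GFP muscles as a grey band. Replicate 34 (squares) lies closer to 0 than replicates 31 and 36 for Pdk1 (0.23), Pdk4 (1.09), Pdp1 (0.05), Pdha1 and Dlat, and Pdk4 clears the band in all 3 muscles.

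Slow-fibre transcripts differed between the groups as well. Their centred mean log2 CPM was -1.82, -1.14 and -0.573 in GFP replicates 42, 43 and 46, where Pdk4 fell in that order. It was 1.91, -0.206 and 1.83 in CAAHR replicates 31, 34 and 36, where replicate 34 was the lowest for Pdk4 too. A link between these levels was not tested. The 9 slow-fibre markers summed to 683 to 2913 CPM in CAAHR and 239 to 520 CPM in GFP muscles, with a median log2 fold change of 2.36, and replicate 34 had the lowest of the CAAHR values. None of the 9 passed the edgeR quasi-likelihood test after adjustment, and 7 were higher at an unadjusted p under 0.05 (11.3% of all tested genes). With the mean slow-fibre level of each library as a covariate, Pdk4 kept a log2 fold change of 1.37 but was no longer called (edgeR quasi-likelihood test, adjusted p = 0.308), and that of Pdk1 was 0.14 (adjusted p = 0.695). Pdp1 took the opposite sign in that fit, at 0.14. The covariate itself did not overlap between groups (-0.206 to 1.91 in CAAHR and -1.82 to -0.573 in GFP muscles). With 6 libraries that fit therefore cannot tell the group difference from the slow-fibre level, whether or not a call is lost. Of the 11 fast-fibre markers 3 fell (Myl1, Tnnt3 and Tnni2), and the median log2 fold change of the list was -0.45. The fitted log2 fold change was above 0 for 2 of the 11, the myosin heavy chain genes Myh2 (1.38) and Myh1 (0.997). Their groups overlapped and neither passed (edgeR quasi-likelihood test, adjusted p = 0.386 and 0.427).

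Markers of other cells moved too. Over all tested genes 3.04% were called higher and 4.57% lower in the edgeR test, and 12.6% were lower at an unadjusted p under 0.05. Lymphocyte markers summed to 11.4 to 20.2 CPM in CAAHR and 144 to 578 CPM in GFP muscles. Of 7 tested genes 3 were lower, all of the B cell lineage (Cd79a, Ighm and Igkc). Most of these sums came from Ighm, at 7.82 to 17.8 CPM in CAAHR and 121 to 392 CPM in GFP muscles. The T cell marker Cd3e overlapped between groups (log2 fold change -0.42, edgeR quasi-likelihood test, adjusted p = 0.516), and Cd4 and Cd8a were too low to be tested. The study measured selected immune genes by quantitative PCR and found them not lower in CAAHR than in uninfected muscle. Its authors read this as a local immune response to the GFP vector, which was not tested here. Of the 7 adipocyte markers 3 were lower (Plin1, Cfd and Retn; median log2 fold change -2.09). The 6 macrophage markers had a median of -0.92 and sums of 18.4 to 33.0 against 39.0 to 76.7 CPM, but none passed the adjusted edgeR test, with 4 at an unadjusted p under 0.05. None of 6 endothelial, 6 fibroblast or 5 Schwann cell markers was called, with 1, 0 and 2 genes lower at an unadjusted p under 0.05. Of the 9 muscle fibre markers 1 rose (Dmd) and 2 fell (Acta1 and Ckm). The part of these cells in the values of the 10 genes was not tested.

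Around the complex, 10 further genes for its cofactors, assembly and associated proteins were listed and 8 were tested. Of these, 1 rose and 0 fell, beside 3.04% and 4.57% of all tested genes, with a median log2 fold change of -0.03. The one that rose was Slc19a2, a transporter of thiamine, the vitamin from which the E1 cofactor is made. It was at 8.94, 7.32 and 7.43 CPM in CAAHR and 4.93, 4.90 and 5.63 CPM in GFP muscles, a log2 fold change of 0.61 ± 0.14 (SE, edgeR quasi-likelihood test, adjusted p = 0.0276). Lias, which makes the lipoic acid arm of Dlat, was next by p, at 32.4 to 33.2 CPM in CAAHR and 36.1 to 41.4 CPM in GFP muscles, without overlap but short of the adjusted threshold (log2 fold change -0.24, edgeR adjusted p = 0.133). Pdha2, the testis form of E1 alpha, was at 0 counts in every library, and Slc19a3 was too low to be tested.

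Of 14 genes that supply pyruvate or carry it elsewhere, 1 fell and 0 rose, beside 4.57% and 3.04% of all tested genes. Their median log2 fold change was -0.11. The one that fell was Slc16a3, the monocarboxylate carrier that exports lactate from glycolytic fibres. Its level was 212, 342 and 238 CPM in CAAHR and 392, 548 and 485 CPM in GFP muscles, a log2 fold change of -0.85 ± 0.19 (SE, edgeR quasi-likelihood test, adjusted p = 0.0336). Me2, a mitochondrial malic enzyme, had the next smallest p, at 2.10 to 3.10 CPM against 3.51 to 4.23 CPM (log2 fold change -0.63, edgeR adjusted p = 0.0906). The mitochondrial pyruvate carrier genes Mpc1 and Mpc2, singled out after their values were seen, overlapped between groups (log2 fold changes -0.02 and -0.12, edgeR adjusted p = 0.942 and 0.704).

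Of 20 genes for factors known to act on kinase genes, 1 rose and 2 fell, beside 3.04% and 4.57% of all tested genes. Their median log2 fold change was 0.06. Klf15, a glucocorticoid-induced factor of fasted muscle, rose from 25.3 to 32.0 CPM in GFP to 35.9 to 50.9 CPM in CAAHR muscles (log2 fold change 0.61 ± 0.14, SE, edgeR quasi-likelihood test, adjusted p = 0.0303). Thra, a thyroid hormone receptor, fell, from 73.0 to 90.4 CPM in GFP to 56.9 to 62.0 CPM in CAAHR muscles (-0.47 ± 0.10, edgeR adjusted p = 0.0247). Myc, a growth regulator, fell from 6.91 to 10.4 CPM in GFP to 2.63 to 4.41 CPM in CAAHR muscles (-1.26 ± 0.22, edgeR adjusted p = 0.0111). Ppara, the fatty acid receptor that acts on Pdk4 and was singled out after its values were seen, was at 12.7, 3.41 and 13.4 CPM in CAAHR and 1.70 to 3.02 CPM in GFP muscles, and did not pass (log2 fold change 1.94, edgeR adjusted p = 0.109).

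Pdk4 is also known as a gene that responds to PPAR factors and fasting. Of 25 others listed as such, most were genes of fat use, but the ubiquitin ligases Fbxo32 and Trim63 and Txnip were among them. Of the 25, 3 rose and 0 fell, beside 3.04% and 4.57% of all tested genes. At an unadjusted p under 0.05 in the edgeR test, 15 were higher and 1 was lower, beside 11.3% and 12.6% of all tested genes. The median log2 fold change was 0.53. Ucp3, a mitochondrial carrier of muscle that the study had named from these libraries, was at 313, 377 and 438 CPM in CAAHR and 126, 183 and 73.0 CPM in GFP muscles (log2 fold change 1.56 ± 0.33, SE, edgeR quasi-likelihood test, adjusted p = 0.0406). Mlycd, which removes the malonyl-CoA that blocks fat entry into mitochondria, rose by 0.53 ± 0.13 (edgeR adjusted p = 0.0323), and Acot2, a mitochondrial acyl-CoA thioesterase, by 0.80 ± 0.17 (edgeR adjusted p = 0.0247). Replicate 34 was within the GFP range for 12 of the 25 genes (35.3% of all tested genes), replicate 31 for 4 (34.8%) and replicate 36 for 3 (33.5%). Of the 9 genes called in the 5 lists plotted here, 0 were called with the slow-fibre covariate and 0 without CAAHR replicate 36.

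**Figure D5:**
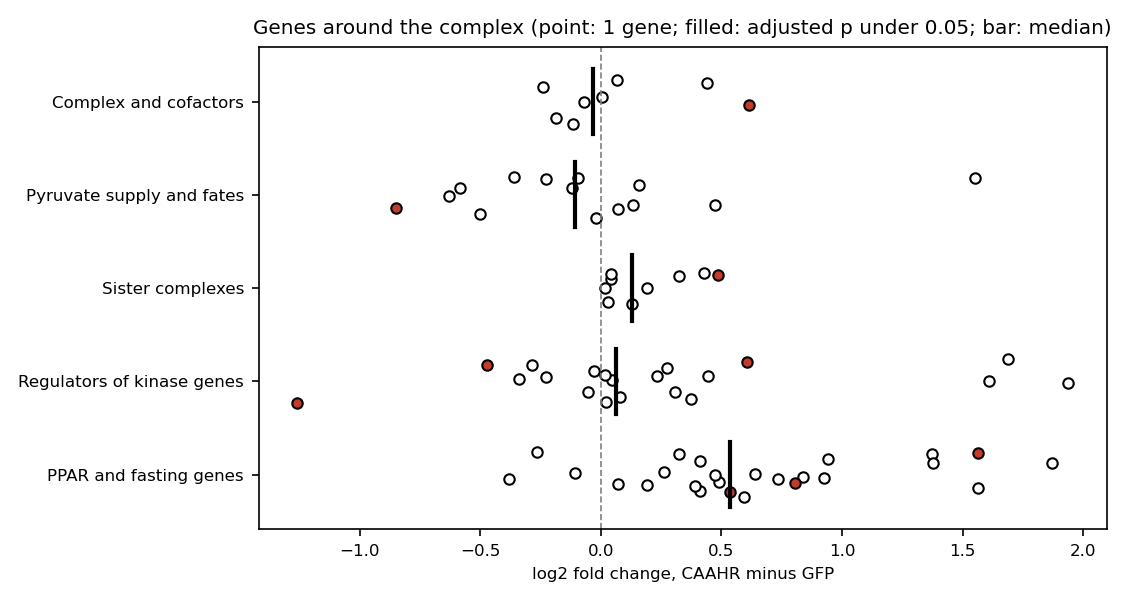
Log2 fold change (CAAHR minus GFP) of each tested gene in 5 lists around the complex, 1 point a gene, filled for an adjusted p under 0.05, with the list median as a bar. Medians are -0.03 for complex and cofactors, -0.11 for pyruvate supply and fates, 0.13 for the sister complexes, 0.06 for regulators of kinase genes and 0.53 for PPAR and fasting genes.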

How the data were processed

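The table deposited by the authors holds raw counts of reads for each gene. In their methods, poly(A)-selected RNA was read as paired ends, trimmed with Trimmomatic 0.36, aligned to GRCm38 with STAR 2.5.2b and counted over exons with featureCounts, using reads assigned to 1 place. The authors neither normalised nor pooled these counts. Whether the libraries were stranded was not given in the sources used here, so genes sharing exon bases on opposite strands are uncertain.

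The test was that of edgeR 4.0.16 in R 4.3.3: filterByExpr, TMM scaling, robust quasi-likelihood F test, CAAHR against GFP, and Benjamini-Hochberg adjustment over all 15847 tested genes at 0.05. Standard errors and 95% intervals come from that fit. Of the counts, 0.0154% were in 174 rows without a symbol, which were kept. Exon lengths and positions are from GENCODE release 21 (49056 of 49315 identifiers matched). Counts of any pair of replicates differed beyond sampling noise (chi-square over degrees of freedom at least 23.7). Calculations were tested on simulated data.

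Alternatives were DESeq2 1.42.0 (which the authors used), limma 3.58.1 voom with sample weights, other scalings and filters, a slow-fibre covariate, and leaving out each library. All 10 genes were named. From each list the genes with an adjusted p under 0.05 were named or, where fewer than 2, also those with the next smallest p. For Pdk1 and Pdk4, the 3 genes of at least 10 CPM with the most similar profile were named too, except 1 that is not reported here. The genes, lists and tests were chosen with earlier results of these data known.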

Additional observations from a re-analysis of the deposited data

How the results depend on the processing

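The lowest counts behind any of the 10 genes were those of Pdk3, at 34 to 49 a library. Pdk4 was called in 12 of 15 alternatives and Pdk1 in 8, and both kept their direction in all 15. Of the 150 checks of single genes, 125 kept direction and side of the threshold, 10 lost the call, 5 gained it and 10 changed sign. The causes were not tested. No paired analysis was possible because no number occurs in both CAAHR and GFP.

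Against 2 of the 10 genes called, upper quartile scaling gave 1, no filter on low counts gave 4 (Pdha1 and Pdp2 added) and the slow-fibre covariate gave 0. Leaving out 1 library gave from 0 (CAAHR 31 or CAAHR 36) through 1 (any GFP library) to 4 (CAAHR 34, with Pdha1 higher and Pdp1 lower). Over all genes, 1205 calls became 2470 without a filter, 1923 with DESeq2 and 443 with the slow-fibre covariate, and with 1 library left out from 530 (CAAHR 36) to 1727 (CAAHR 34), with 694, 849, 701 and 604 without CAAHR 31, GFP 42, GFP 43 and GFP 46. Against 9 calls in the 5 pathway lists, the same settings gave 25 (no filter), 23 (DESeq2) and 0 (covariate), and with 1 library left out from 0 (CAAHR 36) to 29 (CAAHR 34), with 2, 3, 4 and 2 without CAAHR 31, GFP 42, GFP 43 and GFP 46. The split over all genes was 481 higher and 724 lower, 358 and 990 with upper quartile scaling (median of all genes -0.06) and 876 and 600 with library size only (0.09). TNGCGTG in place of GCGTG gave 0 of the genes instead of 5.

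The sign changes were in Dld, Pdhb and Pdp1. The log2 fold change of Dld was -0.011 with upper quartile scaling, -0.19 with the covariate and -0.038 without CAAHR 31. That of Pdhb was 0.081 with library size only, 0.012 with no filter, 0.035 with limma-voom, and ran from -0.061 (without CAAHR 36) to 0.047 (without GFP 46) with 1 library left out. That of Pdp1 was 0.14 with the covariate, from -0.31. The difference in the Pdk4 share (26.6 percentage points) stayed between 20.8 and 29.9 with 1 library left out, and that in the ratio of kinases to phosphatases (17.6) between 14.6 and 23.5. With the longest transcript as gene length these differences were 26.8 and 17.1, and without length correction 25.9 and 13.5.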

Other observations

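The 2-oxoglutarate and branched-chain 2-oxoacid dehydrogenases are built on the same plan as pyruvate dehydrogenase and share its Dld subunit. Of 9 genes of these sister complexes and their regulators, 1 rose and 0 fell, beside 3.04% and 4.57% of all tested genes. All 9 had a fitted log2 fold change above 0 (median 0.13), where 51.2% of all tested genes did. That direction held for 5 of the 9 with upper quartile scaling, with the slow-fibre covariate and without GFP 42, for 7 without CAAHR 31 or CAAHR 36, and for 8 without CAAHR 34. Ogdh, the E1 subunit of 2-oxoglutarate dehydrogenase in the citric acid cycle, was at 1113, 933 and 1109 CPM in CAAHR replicates 31, 34 and 36 and at 723, 759 and 771 CPM in GFP muscles. Its groups did not overlap and its log2 fold change was 0.49 ± 0.12 (SE, edgeR quasi-likelihood test, adjusted p = 0.0337), a call lost with upper quartile scaling, with the slow-fibre covariate and without any 1 library other than CAAHR 34. Bckdk, the kinase that inhibits branched-chain dehydrogenase as the Pdk enzymes inhibit pyruvate dehydrogenase, was at 150, 147 and 139 CPM against 110, 114 and 124 CPM. Those groups did not overlap either, but the difference of 0.32 ± 0.09 on the log2 scale missed the adjusted threshold (edgeR, adjusted p = 0.0667).

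The genes whose levels followed Pdk4 most closely over the 6 libraries were Wdr7 (Pearson r of log2 CPM 0.995), Taf2 (0.993) and Supt6 (0.993). For Pdk1 they included Helz (0.998) and Zfp592 (0.992). These are descriptions over 6 points that share the group difference. Of these 5 genes only Taf2 was itself called (log2 fold change 0.49, edgeR quasi-likelihood test, adjusted p = 0.0413).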
